A study of Mus musculus with 30 samples.

Results

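The IG-CGI is a CpG island inside the intergenic control region of the imprinted Dlk1-Dio3 domain, and its methylation was compared here between Tet triple knockout mouse embryonic stem cells (mESC) and wild-type V6.5 mESC. Of the 30 libraries of the series, 17 were read on the same IG-CGI reference, and the comparison rests on 1 Tet triple knockout library and 1 wild-type library. The genotype labels read Tet triple knockout and wild type, and the cell line labels read Tet-TKO and V6.5, and genotype cannot be told apart from line. The name of the wild-type library says that its cells carry no reporter. The labels give neither the parental strain nor the number of clones of the Tet-TKO line. The other 15 libraries on this reference are given as context only, and come from mESC, embryo trunk, oocytes, a dead pup and adult tails. They include wild type, Dnmt1 knockout and Gzf1 knockout, and 5 adult tails labelled heterozygous with a maternal Gzf1 knockout. DNA was bisulfite converted, amplified by nested PCR and sequenced as an amplicon on the Oxford Nanopore platform. Positions called on 10% or more of the reads, in at least 1 of these 17 libraries, were taken as amplicon CpGs, and there were 29. They are named by their position on the amplicon reference, from CpG 55 to CpG 273, a span of 219 bases.

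The Tet enzymes oxidise 5-methylcytosine to 5-hydroxymethylcytosine and further products, which opens a route to demethylation. The domain lies on mouse chromosome 12 (mm10), between Dlk1 (109452485 to 109463336) and Dio3 (110279230 to 110281097). In normal cells its control region is methylated on the paternal chromosome and unmethylated on the maternal one, which goes with expression of Dlk1 and Dio3 from the paternal copy and of the long non-coding RNA Meg3 from the maternal copy. An amplicon of this region is therefore read from methylated and unmethylated molecules at once. Bisulfite sequencing scores 5-methylcytosine and 5-hydroxymethylcytosine alike as methylated.

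The Tet triple knockout library held 418 reads with 11479 calls, and the wild-type library 1218 reads with 33568 calls. A read carried a median of 29 calls in both libraries, and 304 knockout reads and 795 wild-type reads were called at every CpG. CpG 273 had the fewest calls, 353 in the knockout and 938 in the wild type. A code in the read names is shared by the knockout and a Dnmt1 knockout library and differs in the wild type, so this difference cannot be told apart from genotype either. Expression of the Tet genes was not measured, and the genotype rests on the label. The PCR carried no molecular identifiers and reads can be copies of 1 molecule, so the intervals and tests below cover counting error only and compare 2 libraries, not 2 genotypes.

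The calls of 1 read can be written as a string of 29 letters from CpG 55 to CpG 273, with Z for a methylated and z for an unmethylated call. The 5 most frequent strings of the Tet triple knockout are shown because they carry the main feature of the locus, reads that are unmethylated or methylated from end to end with at most 1 call that deviates.
Unmethylated throughout: zzzzzzzzzzzzzzzzzzzzzzzzzzzzz
Methylated throughout: ZZZZZZZZZZZZZZZZZZZZZZZZZZZZZ
Gap at CpG 131: ZZZZZZzZZZZZZZZZZZZZZZZZZZZZZ
Stray at CpG 180: zzzzzzzzzzzzZzzzzzzzzzzzzzzzz
Gap at CpG 254: ZZZZZZZZZZZZZZZZZZZZZZZZZZzZZ

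Of the reads called at every CpG, 143 of 304 knockout reads (47.0%, Wilson interval 41.5 to 52.7) and 349 of 795 wild-type reads (43.9%, 40.5 to 47.4) were unmethylated throughout. The string methylated throughout was found on 44 knockout reads (14.5%, 10.96 to 18.9) and 99 wild-type reads (12.5%, 10.3 to 14.9). Neither share differed beyond counting error, with differences of 3.14 points (95% interval -3.40 to 9.71) and 2.02 points (-2.28 to 6.90). The gap at CpG 131 alone was on 6 knockout and 5 wild-type reads, the stray call at CpG 180 alone on 5 and 5, and the gap at CpG 254 alone on 5 knockout and 2 wild-type reads.

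The average methylation of the IG-CGI differed between the libraries by less than the counting error. The mean over the 29 CpGs was 36.9% in Tet triple knockout cells (95% interval 32.5 to 41.3) and 36.8% in wild-type cells (34.2 to 39.3). The difference of 0.151 points had an interval of -4.92 to 5.22, which is the range of shifts that these reads allow. Among reads called at every CpG the difference was -3.30 points (-9.17 to 2.57), and with identical reads counted once it was -3.45 points (-11.2 to 4.29), so its direction was not stable.

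Single CpGs lay near this average. Levels ran from 31.4% to 40.5% in the knockout and from 33.0% to 41.4% in the wild type, with an SD over CpGs of 1.44 and 1.42 points. The level was higher in the knockout at 14 CpGs and lower at 15, with a median difference of -0.0901 points. By Fisher's exact test with Benjamini-Hochberg adjustment, 0 of 29 CpGs were called at an adjusted p under 0.05 and a difference of at least 20 points (0% called), and 0 had an unadjusted p under 0.05. The single-CpG intervals of the difference reached from -8.98 points at the lowest to 9.12 points at the highest, which bounds what the reads of the knockout could show at 1 CpG.

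CpG 131 was the least methylated position in both libraries, with 31.4% of 395 calls in the knockout and 33.0% of 1168 calls in the wild type. Counting the knockout and the wild type, it was the lowest CpG in 12 of the 17 libraries on this reference. The next lowest in the knockout were CpG 108, with 35.4% against 35.6% in wild type, and CpG 244, with 36.0% against 36.99%. CpG 180 was highest in the knockout, at 40.5% of 393 calls, against 36.96% of 1166 calls in wild type, a difference of 3.49 points (95% interval -2.01 to 9.12). CpG 273 was next, at 38.2% in the knockout and 41.4% in wild type, a difference of -3.12 points (-8.98 to 2.91). CpG 231 stood at 38.2% in the knockout and 36.0% in wild type, a difference of 2.19 points (-3.26 to 7.80). Across the 29 CpGs the levels of the libraries had a Pearson r of 0.558 and a Spearman rho of 0.327, a description over positions that share the same reads.

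**Figure D1:**
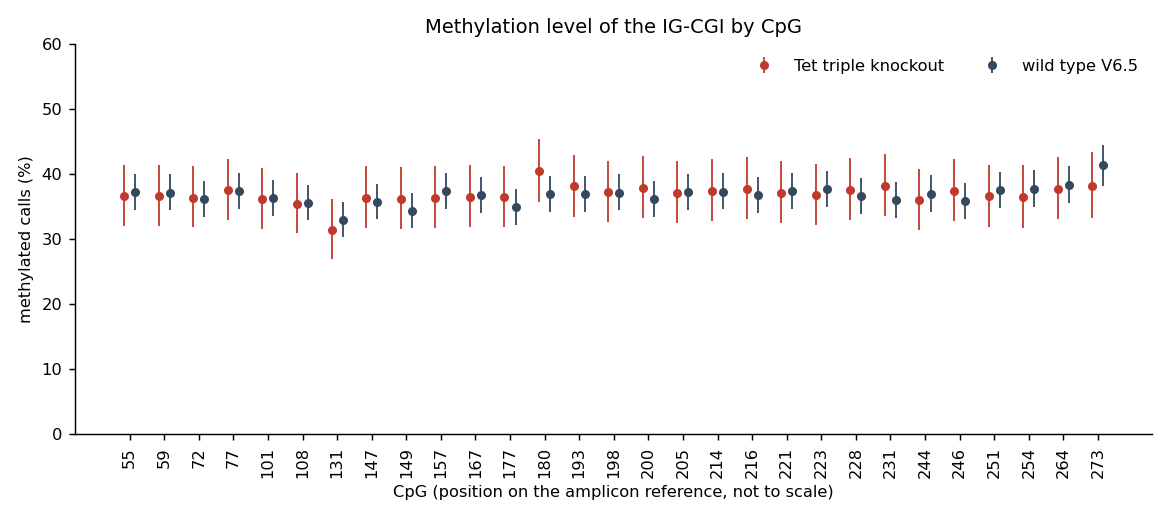
Percent of calls that were methylated at each of the 29 CpGs, with Wilson 95% intervals, in the Tet triple knockout library (left point of each pair) and the wild-type V6.5 library. The points of each pair have overlapping intervals, and CpG 131 is lowest in both, at 31.4% in the knockout and 33.0% in the wild type.

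Reads of both libraries were mostly either methylated or unmethylated along their length. Among reads with at least 5 calls, those with at least 70% of calls methylated are termed mostly methylated, those with at most 30% mostly unmethylated, and the others intermediate. Mostly methylated reads were 152 of 414 in the knockout (36.7%, Wilson interval 32.2 to 41.5) and 418 of 1210 in the wild type (34.5%, 31.9 to 37.3). The difference was 2.17 points (-3.09 to 7.59, Fisher's exact p = 0.438). Mostly unmethylated reads were 249 in the knockout (60.1%, 55.4 to 64.7) and 728 in the wild type (60.2%, 57.4 to 62.9), a difference of -0.0204 points (-5.53 to 5.36).

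The methylated share of a mostly methylated read was 95.7% ± 5.63 in the knockout and 95.03% ± 6.32 in the wild type (SD over reads, n = 152 and 418 reads), with a median of 96.6% in both. That of a mostly unmethylated read was 1.64% ± 3.71 in the knockout and 1.84% ± 4.34 in the wild type (SD, n = 249 and 728 reads), with a median of 0 in both.

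Intermediate reads were 13 in the knockout (3.14%, Wilson interval 1.84 to 5.30) and 64 in the wild type (5.29%, 4.16 to 6.70). The difference of -2.15 points (95% interval -4.06 to 0.284) did not pass Fisher's exact test (p = 0.0819, adjusted over the 3 read classes 0.246). Among reads called at every CpG, however, the difference was -3.81 points (Fisher's exact p = 0.00648). With classes set at 80% and 20% it was -3.52 points (exact p = 0.0189). Without the first 3 and last 3 CpGs it was -2.36 points (exact p = 0.0331), and with classes at 90% and 10% -4.67 points (exact p = 0.0194). With identical reads counted once it was -4.49 points (exact p = 0.138). The p-values of these alternatives were not adjusted over the 3 read classes. Whether the adjusted result depends on such settings was therefore not tested.

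**Figure D2:**
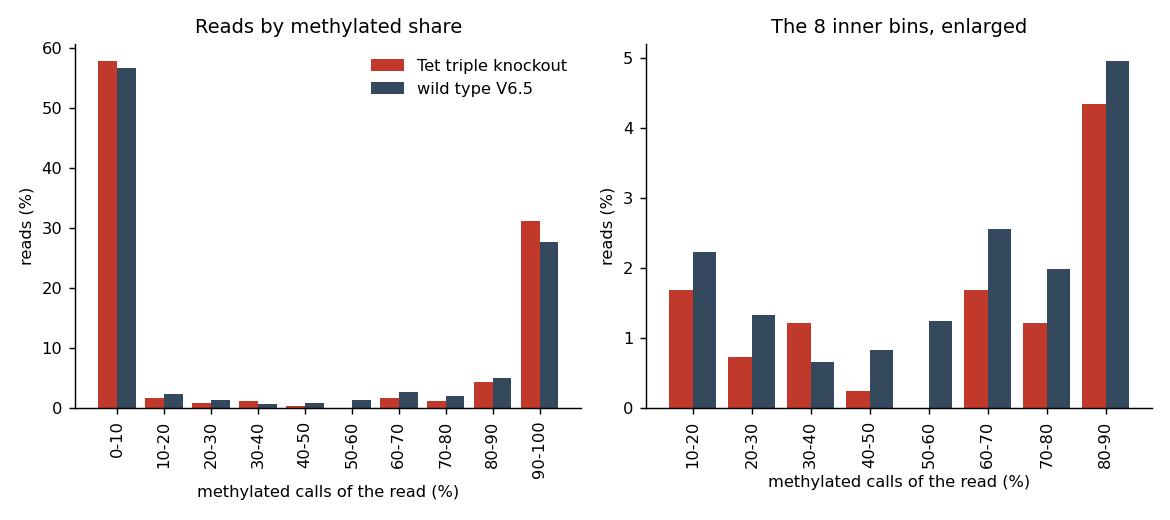
Percent of reads by the methylated share of their calls, in bins of 10 points, for the Tet triple knockout library (414 reads, left bars) and the wild-type library (1210 reads). The right panel enlarges the 8 inner bins. The lowest bin held 57.7% of knockout and 56.6% of wild-type reads and the highest bin 31.2% and 27.6%.

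Most intermediate reads of the knockout changed between methylated and unmethylated calls at 1 place, and many of those of the wild type at several. A switch is counted where consecutive called CpGs of a read differ. Of the 13 knockout reads, 10 had a single switch, 1 had 2 and 2 had 3, with a median of 1. Of the single-switch knockout reads, 1 had 7 calls and 1 had 6, and reads this short leave little room for switches. Of the 64 wild-type reads, 18 had a single switch, and the median was 4 and the highest count 13. Reads with 4 or more switches were 0 of 13 in the knockout, a count that permits a share up to 23.1%, and 35 of 64 in the wild type (54.7%, Wilson interval 42.6 to 66.3). This form was noticed in the reads, and the difference was not tested.

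The following knockout reads show this form. They are the 6 intermediate knockout reads called at every CpG.
Knockout read 3: ZZZZZZZZZZzzzzzzzzzzzzzzzzzzz
Knockout read 4: ZZZZzzzzzzzzzzzzzzzzzzZZZZZZZ
Knockout read 7: zzzzzzzzzzzZZZZZZZZZZZZZZZZZZ
Knockout read 10: zzZzzzzzzzzZZZZZZZZZZZZZZZZZZ
Knockout read 11: zzzzzzzzzzZZZZZZZZZZZZZZZZZZZ
Knockout read 12: zzzzzzzzzzZZZZZZZZZZZZZZZZZZZ
In 7 of the 10 knockout reads with a single switch, the switch lay between CpG 149 and CpG 177. Of the 18 such wild-type reads, 5 switched between CpGs 149 and 157, 2 between 157 and 167 and 1 between 167 and 177. The class bounds partly fix this place in both libraries, because a fully called read with a single switch near an end is not intermediate. No difference in place was tested. A wild-type read with the most switches, 13, and a wild-type pair of identical reads with 12 are given for comparison.
Wild type, 13 switches: zzZzzZzZzZzzzZZZzZZZZZZZzZZZZ
Wild type, 12 switches: zzzZZZZzZzZzZZZzzZZZZZzzzzzZz

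Recurrence was examined only among reads with 4 or more switches, of which the knockout had none. The wild-type reads with many switches recurred. When reads that differed at no more than 2 shared CpGs were joined, the 35 reads formed 21 groups, and 8 of these groups held more than 1 read, 22 reads in all and at most 3 per group. Knockout reads 11 and 12 above also carry the same string. Whether these, or the reads of 1 group, came from 1 molecule was not tested.

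Over all reads, neighbouring CpGs carried different calls less often in the knockout. Of the pairs of neighbouring CpGs called on 1 read, 3.60% differed in the knockout (95% interval 3.10 to 4.10) and 4.34% in the wild type (3.96 to 4.72), a difference of -0.736 points whose interval, -1.37 to -0.105, excluded 0. With identical reads counted once it was -1.74 points (-2.90 to -0.571), a setting that merges switch-free reads and raises both rates by construction. Without the intermediate reads it was -0.0607 points (-0.663 to 0.542), a setting that removes reads for their mixed calls and so lowers the switch rate by construction.

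The switch rate was mapped along the amplicon with Fisher's exact test at each of the 28 neighbouring pairs and Benjamini-Hochberg adjustment, a test chosen after the reads had been seen. It was lower in the knockout at 16 pairs and higher at 12, and 3 pairs were called (10.7% called), all with fewer switches in the knockout. CpGs 198 and 200 differed on 5 of 395 knockout reads (1.27%) and 68 of 1164 wild-type reads (5.84%, exact test, adjusted p = 0.00139). CpGs 200 and 205 differed on 2.27% of knockout and 6.59% of wild-type reads (exact test, adjusted p = 0.0110), and CpGs 205 and 214 on 0.758% of knockout and 3.53% of wild-type reads (adjusted p = 0.0226). The 3 pairs adjoin each other, and reads are shared between them. A lone deviating call at CpG 200 or CpG 205 counts as a switch in both pairs that hold it. The pairs are therefore not separate results, and the gap rate at CpG 200 was itself not called (exact test, adjusted p = 0.181).

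Most of these wild-type switches were on mostly methylated or mostly unmethylated reads. Between CpGs 198 and 200, 38 of the 68 lay on mostly methylated, 20 on mostly unmethylated and 10 on intermediate reads, and the 5 knockout switches lay 1, 4 and 0. With the intermediate reads left out, 1 pair was called. The same pair of CpGs had switch rates of 0.542% to 22.0% in the other 15 libraries, with a median of 10.2%, so the Tet triple knockout, at 1.27%, and the wild-type mESC, at 5.84%, both lay below that median.

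**Figure D3:**
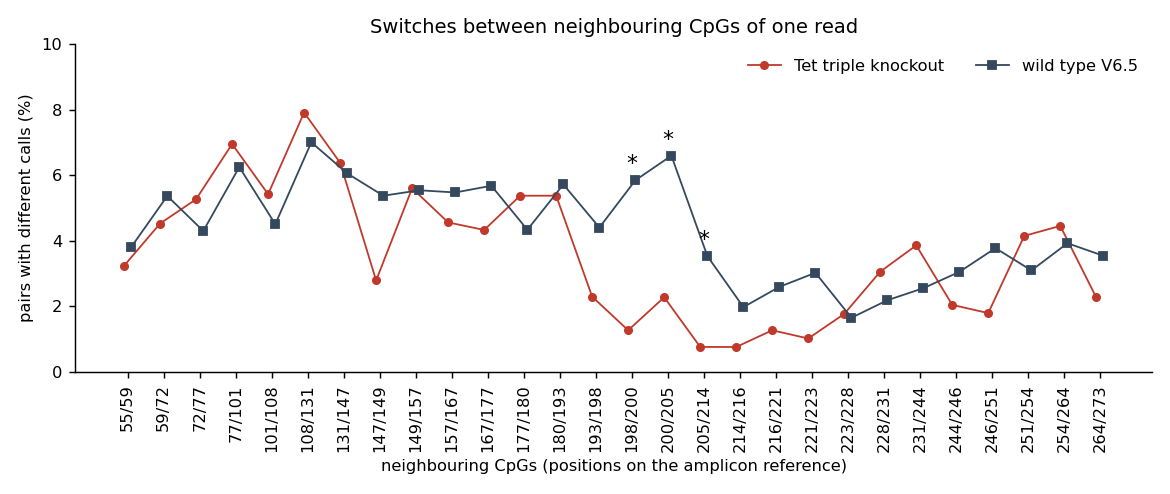
Percent of reads on which neighbouring CpGs carried different calls, at each of the 28 pairs, for the Tet triple knockout library (circles) and the wild-type library (squares). Asterisks mark the 3 pairs with an adjusted p under 0.05, where the knockout stood at 1.27%, 2.27% and 0.758% and the wild type at 5.84%, 6.59% and 3.53%.

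Gaps, the unmethylated calls on mostly methylated reads, made up 171 of 4116 calls in the knockout (4.15%, 95% interval 3.28 to 5.03) and 579 of 11532 calls in the wild type (5.02%, 4.41 to 5.63). The difference was -0.866 points (-1.93 to 0.198). Among reads called at every CpG it was -1.57 points (-2.80 to -0.342), an interval that excluded 0. With mostly methylated reads set at 80% of calls it was -0.388 points (-1.19 to 0.418), and at 90% it was -0.0577 points (-0.597 to 0.482), so its size depended on how these reads were chosen. The rate was higher in the knockout at 7 CpGs and lower at 22. By Fisher's exact test with Benjamini-Hochberg adjustment, 0 of 29 CpGs were called (0% called), 2 had an unadjusted p under 0.05, and the smallest adjusted p was 0.181.

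Gaps were most frequent near the start of the amplicon in both libraries. The first 5 CpGs, 55 to 101, had a gap rate of 8.54% in the knockout and 9.33% in the wild type. The next 4, CpGs 108 to 149, had 7.69% in the knockout and 7.17% in the wild type. The last 20, CpGs 157 to 273, had 2.28% in the knockout and 3.49% in the wild type, and here the difference of -1.21 points (95% interval -1.99 to -0.423) excluded 0. With mostly methylated reads set at 90% of calls, it was -0.403 points (-0.998 to 0.191) and no longer did. The blocks were set with earlier results of these data known, and their intervals are not adjusted. No other block interval for level, gaps or strays excluded 0. The gap rates of the 29 CpGs had a Pearson r of 0.801 and a Spearman rho of 0.641 between the libraries, again over positions that share reads.

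Single CpGs stood out by value. CpG 131 had the highest gap rate of the knockout, 23 of 140 calls (16.4%), against 42 of 396 (10.6%) in wild type, a difference of 5.82 points (95% interval -0.422 to 13.3, exact test, unadjusted p = 0.0727, adjusted p = 0.527). CpG 55 followed with 10.1% in the knockout and 9.98% in the wild type, and CpG 59 with 8.84% and 9.95%. At the other end, CpG 214 had 0 gaps in 143 knockout calls, which allows up to 2.10%, and 8 in 404 wild-type calls (1.98%).

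CpG 216 had 0.699% in the knockout and 2.98% in the wild type, and CpG 198 had 0.704% and 4.27%. CpG 200 had a gap in 2 of 143 knockout calls (1.40%) and 30 of 405 wild-type calls (7.41%), a difference of -6.01 points (95% interval -9.15 to -1.84, exact test, unadjusted p = 0.00624, adjusted p = 0.181). CpG 246 had a gap in 2.13% of knockout and 6.84% of wild-type calls (exact test, unadjusted p = 0.0344, adjusted p = 0.498). In the other 13 libraries with at least 50 mostly methylated reads the gap rate of CpG 200 ranged from 0.421% to 14.2%, and that of CpG 131 from 0.214% to 29.3%.

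**Figure D4:**
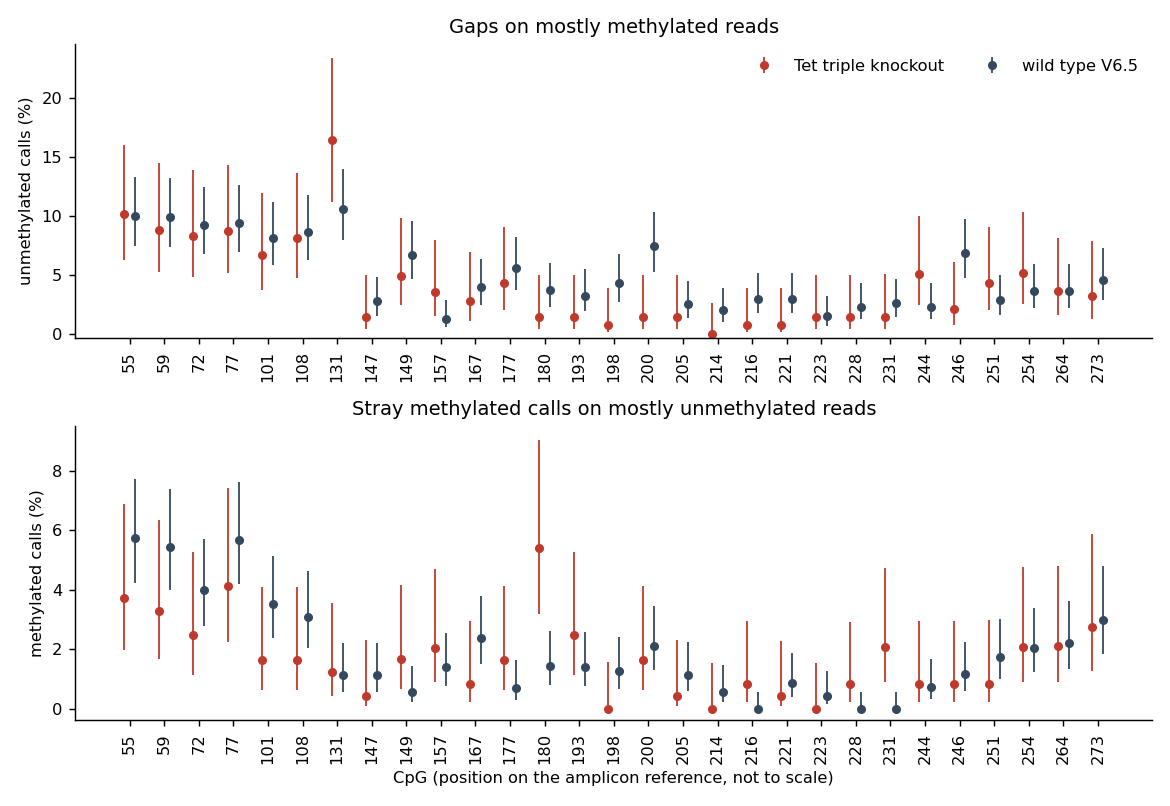
Top, unmethylated calls on mostly methylated reads, and bottom, methylated calls on mostly unmethylated reads, as percent of calls at each CpG with Wilson 95% intervals, for the Tet triple knockout library (left point of each pair) and the wild-type library. Gaps are most frequent at CpG 131 in both libraries (16.4% and 10.6%), and stray calls in the knockout at CpG 180 (5.42%, against 1.43% in wild type).

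Methylated reads with several gaps were fewer in the knockout. Of mostly methylated reads called at every CpG, 44 of 99 knockout reads (44.4%, Wilson interval 35.0 to 54.3) and 99 of 271 wild-type reads (36.5%, 31.0 to 42.4) had no gap. If the gaps of different CpGs were independent, the rates of the single CpGs would give 33.3% in the knockout and 20.7% in the wild type. Reads with 3 or more gaps were 9.09% in the knockout (4.86 to 16.4) and 21.8% in the wild type (17.3 to 27.1). This difference, -12.7 points (95% interval -19.5 to -4.11), had a Fisher's exact p of 0.00592 and an adjusted p of 0.0473 over 8 such comparisons of gaps and strays per read, chosen after the reads had been seen. Without the first 3 and last 3 CpGs it was -6.43 points (exact p = 0.0897), and with mostly methylated reads set at 80% of calls -8.99 points (exact p = 0.0361). With identical reads counted once it was -25.1 points (exact p = 0.00693). That setting merges the 44 knockout and 99 wild-type reads without a gap into a single read per library. The share with 3 or more gaps is thereby raised by construction.

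Runs of consecutive gaps were short in both. In the knockout, 66 of 79 runs were single CpGs (83.5%, Wilson interval 73.9 to 90.1), and in the wild type 207 of 265 (78.1%, 72.8 to 82.7). The longest run was 7 CpGs in each. Runs of 4 or more CpGs numbered 4 on 99 knockout reads and 26 on 271 wild-type reads. All of the first 5 CpGs were gaps on 1 knockout read (1.01%, 0.179 to 5.50) and on 10 wild-type reads (3.69%, 2.02 to 6.66).

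Stray methylated calls on mostly unmethylated reads were rare in both libraries. They made up 116 of 7026 calls in the knockout (1.65%, 95% interval 1.19 to 2.11) and 380 of 20252 calls in the wild type (1.88%, 1.55 to 2.20), a difference of -0.225 points (-0.787 to 0.336). In the library labelled as a knockout of Dnmt1, the maintenance methyltransferase, which shares the read-name code of the Tet triple knockout, the rate was 0.866% (0.741 to 0.991).

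By Fisher's exact test with Benjamini-Hochberg adjustment, 2 of the 29 CpGs were called for stray calls (6.9% called), both with more in the knockout. CpG 180 had 13 stray calls of 240 in the knockout (5.42%) and 10 of 699 in the wild type (1.43%), a difference of 3.99 points (95% interval 1.47 to 7.67, exact test, adjusted p = 0.0345). CpG 231 had 5 of 243 in the knockout (2.06%) and 0 of 701 in the wild type, which allows up to 0.428%, a difference of 2.06 points (0.762 to 4.73, exact test, adjusted p = 0.0318). Both calls were lost when identical reads were counted once (exact test, adjusted p = 0.208 and 0.208) and among reads called at every CpG (0.269 and 0.212). The differences were then 10.4 points (2.50 to 21.3) at CpG 180 and 6.06 points (1.64 to 14.6) at CpG 231 with identical reads counted once, and 3.35 points (0.575 to 7.41) and 2.01 points (0.548 to 5.05) among reads called at every CpG. All 4 intervals lay above 0, with fewer reads tested, but they are not adjusted over the 29 CpGs. Both CpGs were picked for their calls on these same reads. Counting identical reads once merges reads without a stray call, which raises the rates by construction. The Dnmt1 knockout had 0.967% at CpG 180 and 1.09% at CpG 231, and the 13 libraries with at least 50 mostly unmethylated reads beside the Tet triple knockout and the wild type, the Dnmt1 knockout among them, had 0 to 11.5% at CpG 180 and 0.185% to 12.7% at CpG 231.

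After CpG 180, the highest stray rates of the knockout were at the start of the amplicon. CpG 77 had 4.12% in the knockout and 5.67% in the wild type, CpG 55 had 3.70% and 5.73%, and CpG 59 had 3.28% and 5.44%, a difference of -2.16 points (-4.68 to 1.23). Over the first 5 CpGs the rate was 3.03% in the knockout and 4.86% in the wild type, a difference of -1.83 points (-3.84 to 0.183). CpGs 198, 214 and 223 had 0 stray calls of 242, 244 and 244 in the knockout, which allows up to 1.24%, 1.23% and 1.23%, and 1.28%, 0.567% and 0.427% in the wild type. Of mostly unmethylated reads called at every CpG, 143 of 199 in the knockout (71.9%) and 349 of 478 in the wild type (73.0%) had none.

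The knockout library held fewer different read patterns at equal depth. Its 304 reads called at every CpG showed 80 distinct patterns. The 795 wild-type reads showed 199, and 304 of them drawn without replacement would show 102 ± 5.51 (exact rarefaction, mean and SD of the draw). That SD leaves out the sampling of the knockout itself, and the difference was not tested. At 99 reads each, mostly methylated reads showed 38 patterns in the knockout and 49.9 ± 3.56 in the wild type, and at 199 reads each, mostly unmethylated reads showed 37 in the knockout and 36.5 ± 3.11 in the wild type.

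Of these patterns, 37 were found in both libraries, which is 46.3% of the knockout patterns and 18.6% of the wild-type patterns. They covered 256 of the 304 knockout reads (84.2%) and 552 of the 795 wild-type reads (69.4%). These shares rest on unequal read numbers, and more reads in the wild type lower its share of patterns also found in the knockout, so no difference is read from them. Reads 1 call away from a uniform pattern were 21.1% in the knockout and 20.3% in the wild type, and 26 of the 31 such patterns of the knockout were also seen in the wild type. The chance that a pair of reads shared a pattern was 24.3% in the knockout and 20.9% in the wild type.

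The other 15 libraries had mean levels of 0.301% to 96.3%. Wild-type trunk and wild-type tail had 45.1% and 51.9%, switch rates of 7.84% and 10.51%, stray rates of 4.17% and 8.39% and 137 and 164 patterns in 304 reads. Gzf1 knockout mESC had a level of 70.4%, a gap rate of 11.2%, a switch rate of 19.0% and 233 patterns. The gap rates of the Tet triple knockout, 4.15%, and of the wild-type mESC, 5.02%, lay beside those of wild-type tail, 4.49%, and wild-type trunk, 5.29%. These values are given without a test.

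**Figure D5:**
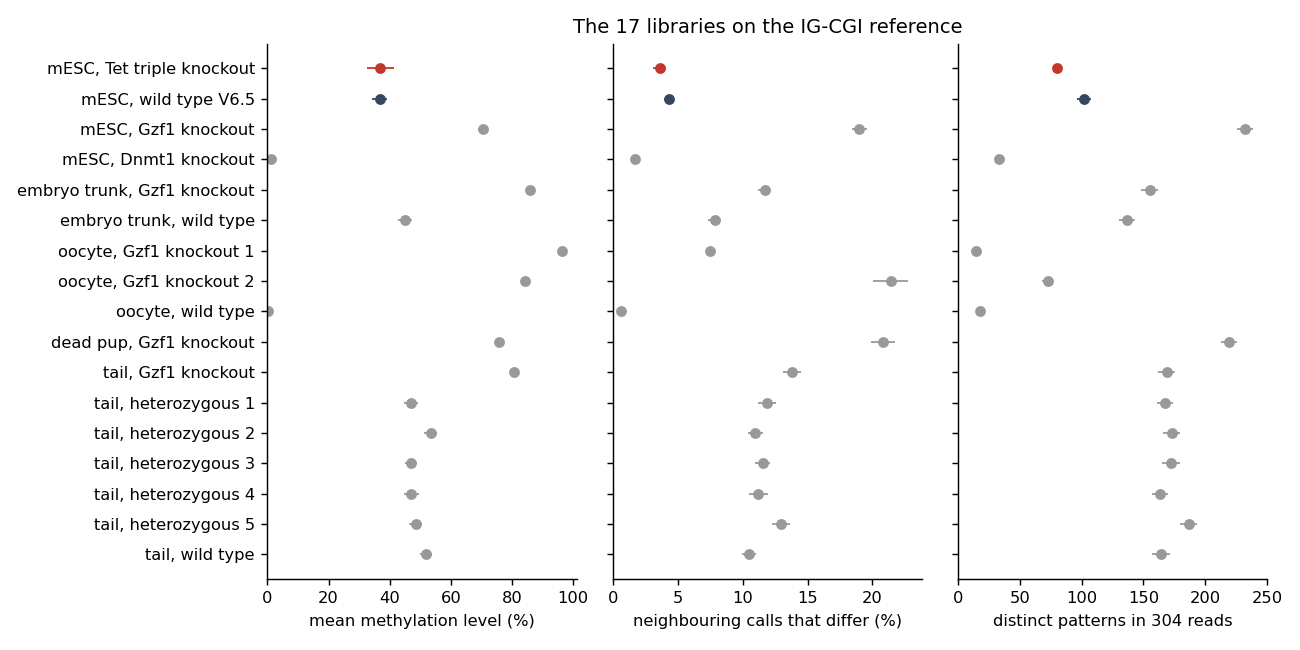
Mean methylation level and share of neighbouring calls that differ, both with 95% intervals over reads, and distinct patterns expected in 304 reads with the SD of the draw, for the 17 libraries on the IG-CGI reference. The Tet triple knockout (36.9%, 3.60% and 80 patterns) and the wild-type mESC (36.8%, 4.34% and 102 patterns) are drawn in colour at the top.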

How the data were processed

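The deposited calls are, per the file headers, 1 methylated (Z) or unmethylated (z) call for each read and CpG on the original top strand, from the Bismark methylation extractor 0.22.3. Bismark 0.24.2 and mm10 are named in the submitters' processing notes, and how reads were filtered or aligned is not given in the sources used here. Calls were present for 32.6% of the read numbers up to the highest in the knockout file and 24.4% in the wild-type file, and why the other reads have none was not tested. Positions refer to an amplicon reference whose sequence was not used here. The comparison, the CpG blocks and the measures were chosen with earlier results of these data known, and the tests of single neighbouring pairs, gaps per read and blocks, and the alternatives for the per-CpG gap and stray tests, were added after the reads had been seen.

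Levels are percent of calls. Intervals of mean levels and rates are at 95% with the variance linearised over reads, those of shares are Wilson's, and those of differences of shares Newcombe's. Each CpG with 10 or more calls per library was tested by Fisher's exact test (two-sided), and p-values were adjusted over the amplicon by Benjamini-Hochberg. Calls of 1 read are not independent, so those tests do not hold jointly. Each test also counts reads as separate molecules, although reads can be copies of 1 molecule. Rarefaction used the hypergeometric formula. Named CpGs were, for level, gaps and strays, the 3 largest differences, the 3 highest and 3 lowest in the knockout and those with an unadjusted p under 0.05. The functions were tested on simulated reads. Software was Python 3.11.15, numpy 2.4.6, pandas 2.3.3, scipy 1.17.1, statsmodels 0.14.6 and matplotlib 3.10.9. The 13 other libraries of the series were left out. They are those of other amplicons and the reporter mESC libraries whose names carry CGI, a wild-type one among them. Alternatives were other coverage minimums, minimum differences, read classes and read sets.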

Additional observations from a re-analysis of the deposited data

How the results depend on the processing

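Of 81 alternative values for 16 results, 49 were labelled the same as the main value. For rates, shares and levels this means the same direction and the same side of the threshold. For counts of called CpGs or pairs and for distinct patterns it means a value within a fixed fold of the main one. The minimums of 5 and 30 calls left out no CpG, so their values could not move. No CpG was called for level or gap rate under any alternative run for them. No paired analysis was possible because each group is 1 library, which also leaves no replicate to leave out.

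Values below are Tet triple knockout minus wild type, and the cause of each change was not tested. With identical reads counted once, the mean level differed by -3.45 points, the share of mostly unmethylated reads by 4.43 points, and 0 CpGs were called for strays. That setting merges all reads with the same calls, whether or not they are copies of a single molecule. Among reads called at every CpG, the mean level differed by -3.30 points, mostly methylated reads by -1.52, mostly unmethylated reads by 5.33, intermediate reads by -3.81 and the gap rate by -1.57 points, and 0 CpGs were called for strays. Without the first 3 and last 3 CpGs, the values were 1.01 points for mostly unmethylated reads, -2.36 for intermediate reads, -1.35 for the gap rate, 0.113 for the stray rate and -6.43 for reads with 3 or more gaps. With read classes at 80% and 20%, mostly unmethylated reads differed by 0.577 points, intermediate reads by -3.52, and 1 CpG was called for strays. At 90% and 10%, the values were 1.12 and -4.67 points, the stray rate differed by 0.165 points, the gap rate of the last 20 CpGs by -0.403, and 1 CpG was called for strays.

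Distinct patterns differed by -11.9 among mostly methylated and 0.473 among mostly unmethylated reads. Leaving out intermediate reads, chosen after seeing the data and removing reads for their mixed calls, gave a switch-rate difference of -0.0607 points and 1 called pair. Reads with 3 or more gaps could not be computed at 90%, which admits at most 2 gaps on a read called at every CpG.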
